A study of Mus musculus with 8 samples.

Results

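Replication-dependent histone genes encode the linker histone H1 and the core histones H2A, H2B, H3 and H4 that are made in bulk during S phase. The members described here were chosen by symbol: H1f1 to H1f6 and every gene named H2ac, H2bc, H3c or H4c with a number. The rule gave 64 genes in the gene annotation, of which 63 were among the 27179 genes of the count matrix. The other one, H2ac14, is annotated as a pseudogene and was not analysed here. The 63 genes comprised 6 for H1, 17 for H2A, 16 for H2B, 12 for H3 and 12 for H4. In the GRCm38.p6 assembly 53 of them lie on chromosome 13 and 10 on chromosome 3.

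Gene counts came from unstranded sequencing of polyadenylated RNA from embryonic mouse cerebral cortex. The comparison asks how transcripts of the cortex differ when Taf8 is lost. TAF8 is one of the TBP-associated factors of TFIID, which binds core promoters and helps to load RNA polymerase II. The 4 Taf8-deleted embryos carried 1 null and 1 loxP-flanked Taf8 allele (Taf8 -/lox), and the 4 Taf8-intact embryos were wild type at both alleles (Taf8 +/+). Each library came from a separate embryo. The sources used here do not give the recombinase, the cells in which it acts or the embryonic stage. Each deleted embryo had its own number before the point in its name, while 3 of the 4 intact embryos shared one. No such number occurred in both groups, so genotype and whatever it marks cannot be told apart, and the intact embryos may be less independent of each other than the deleted ones.

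Histone genes of this kind lie in clusters, mostly lack introns and are transcribed together at the histone locus body with the help of the coactivator NPAT. Their mRNAs normally end in a conserved stem-loop instead of a poly(A) tail, and the stem-loop binding protein SLBP with the U7 small nuclear ribonucleoprotein directs the cut that makes this end. When that cut is missed, or when a gene has a downstream polyadenylation signal, longer polyadenylated histone RNA can be made, which is also known from differentiated cells. Because the libraries were made from polyadenylated RNA, the counts describe the fraction so prepared. Whether each counted histone RNA carried a tail was not measured. More RNA from these genes, a larger polyadenylated share of it and RNA without a tail kept in that fraction cannot be told apart in these data.

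Taf8 itself had 30, 14, 29 and 14 counts in the Taf8-deleted libraries, against 1491, 1383, 1222 and 1403 counts in the Taf8-intact libraries. Every library thus had the Taf8 level of its label, and the gene fell by 6.02 on the log2 scale (SE 0.15, adjusted p = 2.42e-10, edgeR's quasi-likelihood test, Benjamini-Hochberg over every gene tested). Library totals ranged from 39590959 to 44788200 counts, so that a count of 0 allows up to 3 counts, or 0.0670 to 0.0758 CPM (counts scaled to library size), for counting error only. The dorsal forebrain marker Emx1 had 49.9 ± 3.52 CPM in Taf8-deleted and 61.5 ± 4.56 CPM in Taf8-intact cortex (SD, n = 4 each), which fits the labelled tissue. Of 3 cortex markers that include Emx1, 2 were called lower and none higher, to be read beside the shares of all genes given next. Their sums were 680 to 708 CPM in deleted and 769 to 819 CPM in intact libraries. Among all 16074 genes tested, 30.6% were called higher and 32.9% were called lower in Taf8-deleted cortex at an adjusted p under 0.05, and 5.37% were called higher with a change of at least 2-fold. The median log2 fold change of all genes was 0.00 and the 95th percentile was 1.09.

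The stem-loop is shown first because it sets these genes apart from other coding genes and bears on what a polyadenylated library captures. Transcripts of GENCODE release M21 were searched past the stop codon for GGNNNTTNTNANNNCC on the sense strand. A match was found for 43 of the 63 members, beginning a median of 31 bases past the stop codon. Of the 20 others, 16 had annotated transcripts that end fewer than 40 bases past the stop codon. In all of these but H3c13, where 37 bases follow the stop codon, the window was too short to hold a match. The following lines give, for the members with a match that led their class in CPM or in log2 fold change, the stem-loop in capitals with 5 bases on either side.
H1f2: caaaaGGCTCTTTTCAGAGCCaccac
H1f4: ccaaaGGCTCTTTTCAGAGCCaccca
H2ac6: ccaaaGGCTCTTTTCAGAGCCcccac
H2bc6: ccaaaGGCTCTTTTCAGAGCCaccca
H3c14: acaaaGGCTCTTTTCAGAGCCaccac
H3c4: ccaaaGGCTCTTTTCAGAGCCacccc
H4c9: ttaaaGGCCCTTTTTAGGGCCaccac
H4c8: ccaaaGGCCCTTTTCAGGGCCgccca
The letters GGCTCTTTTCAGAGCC stood in 24 of the 43 members, of the H1, H2A, H2B and H3 classes and of no H4 gene. Another form, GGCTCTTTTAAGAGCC, stood in 6 members of the H1, H2B and H3 classes. All 11 H4 matches instead had a stem with other letters, most often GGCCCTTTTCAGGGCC in 6 genes. H2bc21, the member with the highest CPM in intact cortex, has an annotated 3′ end of 2192 bases in which these letters do not occur. H2bc4 and H2bc23 have transcripts that are spliced past the stop codon, and no match was found in them either.

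Core promoters are shown because TFIID acts there. The sequences are RefSeq promoter windows of GRCm38.p6, from 250 bases before to 50 bases after the annotated start, for H1f2, which gained the most CPM, for H2ac6, the H2A gene with the highest CPM, for H4c8, which had the largest log2 fold change, and for H4c4, which had the smallest. Capitals mark TATAAA, the TATA box letters, CCAAT, a promoter-proximal element of many histone genes, and ATTTGCAT, the octamer known from H2B promoters, on either strand, and each window is written 5′ to 3′ on the gene's own strand. Matches of different motifs can share bases at their ends.
H1f2, chr13:23738557-23738856, plus strand: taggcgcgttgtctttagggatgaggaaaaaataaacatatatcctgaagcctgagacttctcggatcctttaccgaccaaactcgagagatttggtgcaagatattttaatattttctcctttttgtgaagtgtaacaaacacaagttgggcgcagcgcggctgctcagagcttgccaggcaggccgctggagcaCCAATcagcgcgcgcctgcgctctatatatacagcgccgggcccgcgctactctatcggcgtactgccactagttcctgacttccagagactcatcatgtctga
H2ac6, chr13:23683910-23684209, minus strand: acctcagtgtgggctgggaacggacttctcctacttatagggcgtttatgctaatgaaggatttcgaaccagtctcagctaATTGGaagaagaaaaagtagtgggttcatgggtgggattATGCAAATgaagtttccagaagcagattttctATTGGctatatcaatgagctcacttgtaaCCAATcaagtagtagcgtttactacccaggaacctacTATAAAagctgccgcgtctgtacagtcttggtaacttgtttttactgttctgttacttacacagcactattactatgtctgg
H4c8, chr13:23530794-23531093, plus strand: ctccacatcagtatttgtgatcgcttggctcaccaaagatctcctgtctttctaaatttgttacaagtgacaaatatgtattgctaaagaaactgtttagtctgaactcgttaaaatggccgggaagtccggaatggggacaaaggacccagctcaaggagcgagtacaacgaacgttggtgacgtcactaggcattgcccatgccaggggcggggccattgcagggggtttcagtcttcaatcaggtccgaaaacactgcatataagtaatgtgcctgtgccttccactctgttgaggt
H4c4, chr13:23581318-23581617, plus strand: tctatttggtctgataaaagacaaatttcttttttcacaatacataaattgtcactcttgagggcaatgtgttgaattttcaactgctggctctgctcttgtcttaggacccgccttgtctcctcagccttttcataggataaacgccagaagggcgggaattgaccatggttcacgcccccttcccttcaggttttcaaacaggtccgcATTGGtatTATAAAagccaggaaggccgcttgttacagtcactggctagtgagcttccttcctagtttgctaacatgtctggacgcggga
H2ac6 and H4c4 both hold TATAAA on the sense strand at position -32 from the start, and their log2 fold changes were 3.99 and 0.37. H1f2 has CCAAT at position -54 and no TATAAA, and H4c8 has none of the 3 motifs in its window. Only exact letters were searched, so similar ones, such as tatatata in the H1f2 window, were not counted. A window was found for 58 of the 63 members. TATAAA occurred on either strand in 58.6% of the members' windows, against 15.7% of 27025 gene promoters of the same length. CCAAT occurred in 86.2% of them, against 41.1% of all, in every H1, H2A, H2B and H3 window but in 3 of 11 H4 windows. The octamer occurred in 22.4% of them, against 1.97% of all, in 7 of 14 H2B and 6 of 17 H2A windows and in no window of the other classes. The octamer of H2ac6 reads in reverse, and this H2A gene lies 239 bases from H2bc4, which is transcribed away from it. Among members with TATAAA on the sense strand, 21 of 22 tested genes were called higher, and among those without it 16 of 18 were, beside 30.6% of all genes tested. In 16 of the 22 and 10 of the 18, at least 1 intact library was below the filter's level, a limit described below. Members with it summed to 61.4 ± 3.21 CPM in deleted and 7.39 ± 0.735 CPM in intact cortex, a ratio of 8.31. Those without it summed to 116 ± 4.56 CPM in deleted and 20.6 ± 2.67 CPM in intact cortex, a ratio of 5.64. H4c9 supplied 22.9 CPM of the first deleted sum and H1f2 73.6 CPM of the second. The difference between these sets was not tested. TATAAA counted at any position of the window, such as -137 in H4c9, so these are not sets of TATA box promoters. A match of letters is a description of the window, not a binding site.

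Histone RNA counted in these libraries was higher in Taf8-deleted cortex in every histone class. Summed over all 63 members, the level was 242, 252, 238 and 226 CPM in the Taf8-deleted libraries, against 43.8, 47.4, 44.1 and 59.7 CPM in the Taf8-intact libraries. The lowest deleted library lay far above the highest intact library. The means were 239 ± 10.5 CPM in deleted and 48.7 ± 7.48 CPM in intact cortex (SD, n = 4 each), a ratio of 4.91. Without the 4 genes that gained the most, H1f2, H2bc4, H4c9 and H2bc21, the ratio of the remaining sum was 5.11.

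**Figure D1:**
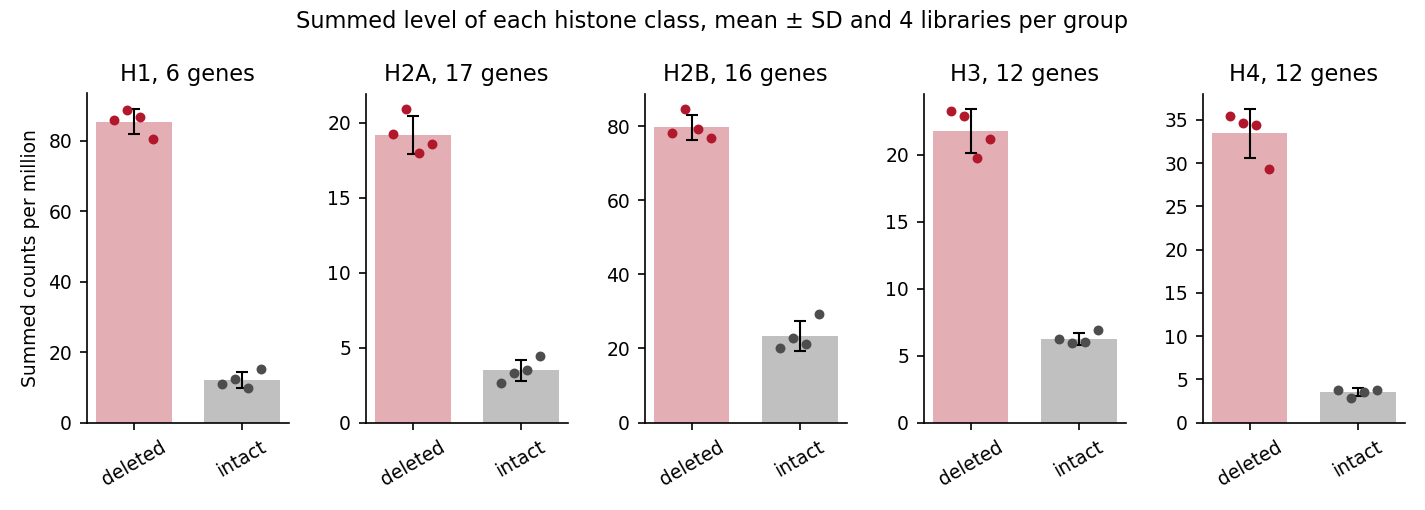
Summed CPM of each histone class in Taf8-deleted (left bar) and Taf8-intact (right bar) cortex. Bars are means, error bars SD over 4 libraries, and points single libraries. In each class all 4 deleted libraries lie above all 4 intact libraries, with ratios of 3.41 for H2B, 3.48 for H3, 5.52 for H2A, 7.05 for H1 and 9.53 for H4.

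Of the 63 members, 44 had enough counts to be tested, and 41 of them were called higher, where 30.6% of all genes tested were. None was called lower, beside 32.9% of all genes tested. The rise was called and at least 2-fold in 35, beside 5.37% of all genes tested. In 40 members the deleted libraries all lay above the intact ones, which held for 27.6% of all genes tested. The tested members had a median log2 fold change of 2.03. These counts are not a measure of all members, since a gene low in both groups is not tested. In 28 of the 44 at least 1 intact library was not above the filter's level of 0.232 CPM, so that the filter itself favours genes higher in deleted cortex among them. The other 16 members exceeded that level in all 4 intact libraries, and 15 of them were called higher and 1 had no call. Of those 16, all 3 H1, 4 H2A, 4 H2B and 2 H4 genes and 2 of 3 H3 genes were called higher. The mean level was higher in deleted cortex for 59 of all 63 members, tested or not. The filter's limit applies equally to the counts called within each class, chromosome or other division of the members.

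The linker histone H1 binds DNA where it enters and leaves the nucleosome. Its genes gained the most in CPM, and H1f2 led them. H1f2 (gene ID 50708, chromosome 13, 23738807 to 23739531, a single exon) had 73.5, 77.2, 75.0 and 68.5 CPM in deleted libraries, against 9.60, 10.9, 8.74 and 13.5 CPM in intact libraries. The groups were widely separated, with a log2 fold change of 2.78 ± 0.11 (SE, adjusted p = 4.52e-08, edgeR). This 1 gene made up 30.7% of the members' CPM in deleted and 21.9% in intact cortex, and 33.0% of the whole gain. H1f4 had 6.66, 6.13, 6.12 and 6.28 CPM in deleted, against 0.674, 0.636, 0.389 and 0.569 CPM in intact libraries. H1f3 had 3.79, 3.61, 3.91 and 4.06 CPM in deleted, against 0.442, 0.542, 0.268 and 0.617 CPM in intact libraries. Neither gene's groups overlapped, and their log2 fold changes were 3.46 ± 0.15 and 3.03 ± 0.20. H1f1 (2.79 ± 0.24) and H1f5 (1.32 ± 0.31) were also called higher, so all 5 tested H1 genes were. H1f6, known as the testis-specific H1t, was not tested and had at most 0.113 CPM in a deleted library and no count in intact libraries. Without H1f2 the H1 sum was 11.8 ± 0.436 CPM in deleted and 1.43 ± 0.290 CPM in intact cortex, a ratio of 8.31.

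H2A pairs with H2B in the nucleosome core, and all 10 tested H2A genes were called higher. H2ac6 (gene ID 319164, chromosome 13, 23683473 to 23683959) had the highest CPM, with 11.0, 12, 10.5 and 10.2 CPM in deleted libraries, against 0.860, 0.542, 0.681 and 0.664 CPM in intact libraries. Its log2 fold change of 3.99 ± 0.13 (adjusted p = 5.37e-10, edgeR) was the second largest of all members after H4c8. H2ac18 had 1.14, 1.77, 1.27 and 1.30 CPM in deleted, against 0.279, 0.353, 0.292 and 0.403 CPM in intact libraries. H2ac13 had 1.05, 1.02, 0.836 and 1.12 CPM in deleted, against 0.395, 0.495, 0.560 and 0.688 CPM in intact libraries. Both stood above their intact range in every deleted library, by 2.03 ± 0.22 and 0.91 ± 0.21 on the log2 scale. The smallest called change was that of H2ac8, at 0.72 ± 0.28 (adjusted p = 0.0415, edgeR). It was the only called member whose libraries overlapped, with 0.898, 0.953, 0.926 and 0.673 CPM in deleted against 0.256, 0.518, 0.511 and 0.806 CPM in intact libraries. The call on H2ac8 was lost with DESeq2 and when any of 6 libraries was left out, with log2 fold changes between 0.50 and 0.74. The other tested H2A genes ranged from 1.33 in H2ac15 to 3.80 in H2ac7. Of the 7 untested H2A genes, H2ac10 and H2ac1 had no count in any library, and the rest stayed at or below 0.272 CPM in every library.

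All 11 tested H2B genes were called higher, and those with the highest CPM changed by unequal amounts. H2bc21 (gene ID 319190, chromosome 3, 96221072 to 96223738) had 27.4, 31.3, 29.4 and 29.1 CPM in deleted libraries, against 14.8, 16.6, 14.6 and 23.1 CPM in intact libraries. The highest intact library came near the lowest deleted one without reaching it, and the log2 fold change was 0.76 ± 0.14 (adjusted p = 0.000959, edgeR). H2bc4 (gene ID 68024, chromosome 13, 23684199 to 23692480) had 30.6, 34.6, 31.5 and 28.9 CPM in deleted, against 2.28, 2.90, 3.58 and 3.65 CPM in intact libraries. Its libraries were far apart, at a log2 fold change of 3.34 ± 0.12 (adjusted p = 3.64e-09, edgeR). By CPM, which is not per length, H2bc21 made up 12.2% of the members' signal in deleted and 35.4% in intact cortex, the largest share of any member there. H2bc6 had 9.07, 8.92, 8.49 and 8.88 CPM in deleted, against 0.651, 0.566, 0.462 and 0.617 CPM in intact libraries, and a log2 fold change of 3.94 ± 0.12. Its groups did not overlap, and its annotated exons overlap those of H1f4, so the reads of these genes could not be fully separated. The remaining H2B genes ranged from 0.98 in H2bc14 to 3.68 in H2bc15, and neither exceeded 1.25 CPM in any library. Without H2bc21 the H2B sum was 50.4 ± 2.26 CPM in deleted and 6.14 ± 0.600 CPM in intact cortex, a ratio of 8.21, where the whole class had 3.41.

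H3 and H4 form the tetramer at the centre of the nucleosome. Of 10 tested H3 genes 8 were called higher, and both chromosome 3 genes at the head of the class were among them. H3c14 (gene ID 15077, chromosome 3, 96246685 to 96247348) had 10.2, 11.7, 10.1 and 10.8 CPM in deleted libraries, against 2.58, 2.69, 2.90 and 3.08 CPM in intact libraries. H3c15 had 4.23, 3.95, 3.48 and 4.11 CPM in deleted, against 1.35, 1.34, 1.22 and 1.45 CPM in intact libraries. Neither gene's groups overlapped, and the log2 fold changes were 1.93 ± 0.09 and 1.56 ± 0.12. H3c4 had 1.77, 1.84, 1.15 and 1.75 CPM in deleted, against 0.209, 0.0707, 0.122 and 0.166 CPM in intact libraries, the largest change of the class at 3.49 ± 0.28. Deleted library 3 was lower than the other 3 and still above every intact library.

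The exceptions among the tested members came from H3 and H4. H3c3 had 1.03, 0.658, 0.723 and 0.823 CPM in deleted, against 0.697, 0.636, 0.487 and 0.640 CPM in intact libraries, with overlapping groups and a log2 fold change of 0.39 ± 0.21 (adjusted p = 0.118, edgeR). H3c6 had 0.548, 0.363, 0.203 and 0.324 CPM in deleted, against 0.256, 0.212, 0.268 and 0.166 CPM in intact libraries, also overlapping, at 0.67 ± 0.33 (adjusted p = 0.0941, edgeR). H4c4 (gene ID 319156, chromosome 13, 23581568 to 23581969) had 0.548, 0.386, 0.565 and 0.374 CPM in deleted, against 0.325, 0.165, 0.535 and 0.427 CPM in intact libraries, and its 0.37 ± 0.32 (adjusted p = 0.329, edgeR) was the smallest change. All 3 lie in the same chromosome 13 group as H1f2. Differences of the size measured in them were within the spread between libraries at this depth, which does not show that the genes did not differ.

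H4 had the largest ratio of summed levels, carried by a pair of genes. H4c9 (gene ID 319158, chromosome 13, 22040960 to 22041362) had 23.3, 24, 23.8 and 20.3 CPM in deleted libraries, against 1.70, 1.32, 1.63 and 1.71 CPM in intact libraries. H4c8 (gene ID 69386, chromosome 13, 23531044 to 23531478) had 5.76, 5.11, 5.31 and 4.36 CPM in deleted, against 0.209, 0.189, 0.146 and 0.213 CPM in intact libraries. Every deleted library exceeded every intact one many times over, with log2 fold changes of 3.85 ± 0.09 (adjusted p = 1.65e-10, edgeR) for H4c9 and 4.74 ± 0.17 (adjusted p = 1.21e-09, edgeR) for H4c8. H4c12 had 2.87, 2.65, 2.17 and 1.92 CPM in deleted, against 0.535, 0.589, 0.438 and 0.617 CPM in intact libraries, at 2.14 ± 0.19 and without overlap. Without H4c9 and H4c8 the H4 sum was 5.43 ± 0.706 CPM in deleted and 1.73 ± 0.249 CPM in intact cortex, a ratio of 3.14. Of 8 tested H4 genes 7 were called higher. H4c2, too low to be tested, was one of the 2 members with counts whose mean was lower in deleted cortex, at 0.121 ± 0.0398 CPM in deleted against 0.177 ± 0.0569 CPM in intact cortex. The other was H2bc13, at 0.0682 ± 0.0293 CPM in deleted and 0.131 ± 0.0786 CPM in intact cortex, and both genes' libraries overlapped.

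**Figure D2:**
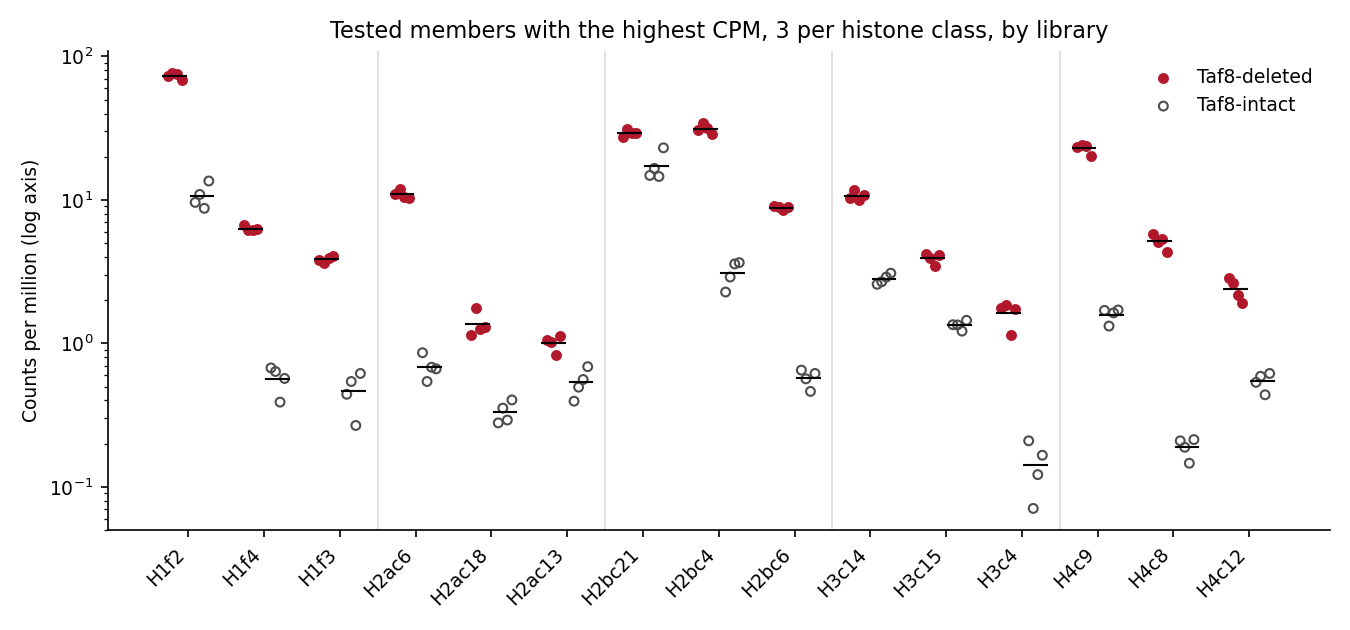
CPM on a log axis of the 3 tested members of each class with the highest mean CPM, H1 to H4 from left to right. Filled points are the 4 Taf8-deleted and open points the 4 Taf8-intact libraries, and lines are means. H2bc21 has the narrowest gap, with means of 29.3 CPM in deleted and 17.2 CPM in intact cortex, and H4c8 the widest, with 5.13 CPM in deleted and 0.189 CPM in intact cortex.

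Per kilobase of annotated exon, the scale on which levels of different genes can be set side by side, H1f2 stood at 47.1 CPM per kb, H2bc4 at 43.1 and H4c9 at 42.6 in deleted cortex. The values in intact cortex were 6.85 CPM per kb for H1f2, 4.26 for H2bc4 and 2.96 for H4c9. H2bc21 stood at 11.2 CPM per kb in deleted and 6.59 in intact cortex. On this scale H2bc21 and H1f2 were therefore level in intact cortex, while H2bc21 was well below the other 3 genes in deleted cortex. The deposited lengths of H2bc4 (728 bases) and H4c9 (537 bases) are shorter than their GENCODE transcripts (1156 and 727 bases). The closeness of these 2 genes to H1f2 in deleted cortex thus depends on the annotation.

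The chromosome 13 genes form 3 groups separated by more than 200000 bases: 17 counted genes from H2bc13 to H2ac24 (21715711 to 21833475), 5 from H2ac12 to H2bc11 (22035122 to 22043658) and 31 from H4c8 to H2ac1 (23531044 to 23934913). The chromosome 3 genes run from H2ac21 to H2bc18 (96219885 to 96270192). Members were higher in Taf8-deleted cortex in all 4 groups, by unequal amounts. The sum of the chromosome 13 genes was 189 ± 10.3 CPM in deleted and 25.2 ± 3.22 CPM in intact cortex, a ratio of 7.49, and that of the chromosome 3 genes was 50.9 ± 2.47 CPM in deleted and 23.6 ± 4.27 CPM in intact cortex, a ratio of 2.16. Of the tested genes, 32 of 35 on chromosome 13 and 9 of 9 on chromosome 3 were called higher, with median log2 fold changes of 2.60 and 1.66. Among those above the filter's level in every intact library, 10 of 11 and 5 of 5 were called higher, with medians of 3.03 and 1.79. The largest change on chromosome 3 was 2.03, in H2ac18, while the range on chromosome 13 reached 4.74.

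The make-up of the histone signal differed with it. Chromosome 3 genes supplied 21.3% ± 1.28 of the members' CPM in deleted and 48.2% ± 1.25 in intact cortex (SD, n = 4 each). The shares did not overlap, since the highest deleted library stood at 23.0% and the lowest intact library at 46.9%. The third chromosome 13 group supplied 63.6% ± 0.598 in deleted and 40.8% ± 0.564 in intact cortex (SD, n = 4 each). H2bc21 alone accounted for much of the chromosome 3 signal, and without it the sum on that chromosome was 21.5 ± 1.38 CPM in deleted and 6.32 ± 0.424 CPM in intact cortex, a ratio of 3.41. The first chromosome 13 group had 11.1 ± 1.64 CPM in deleted and 3.09 ± 0.191 CPM in intact cortex, a ratio of 3.61, close to that value. The second group's ratio of 11.4 came mainly from H4c9 and was 3.78 without it, while the third group's ratio of 7.66 was 7.77 without H1f2 and H2bc4. Whether the groups of genes differ in response was described by these values and was not tested.

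**Figure D3:**
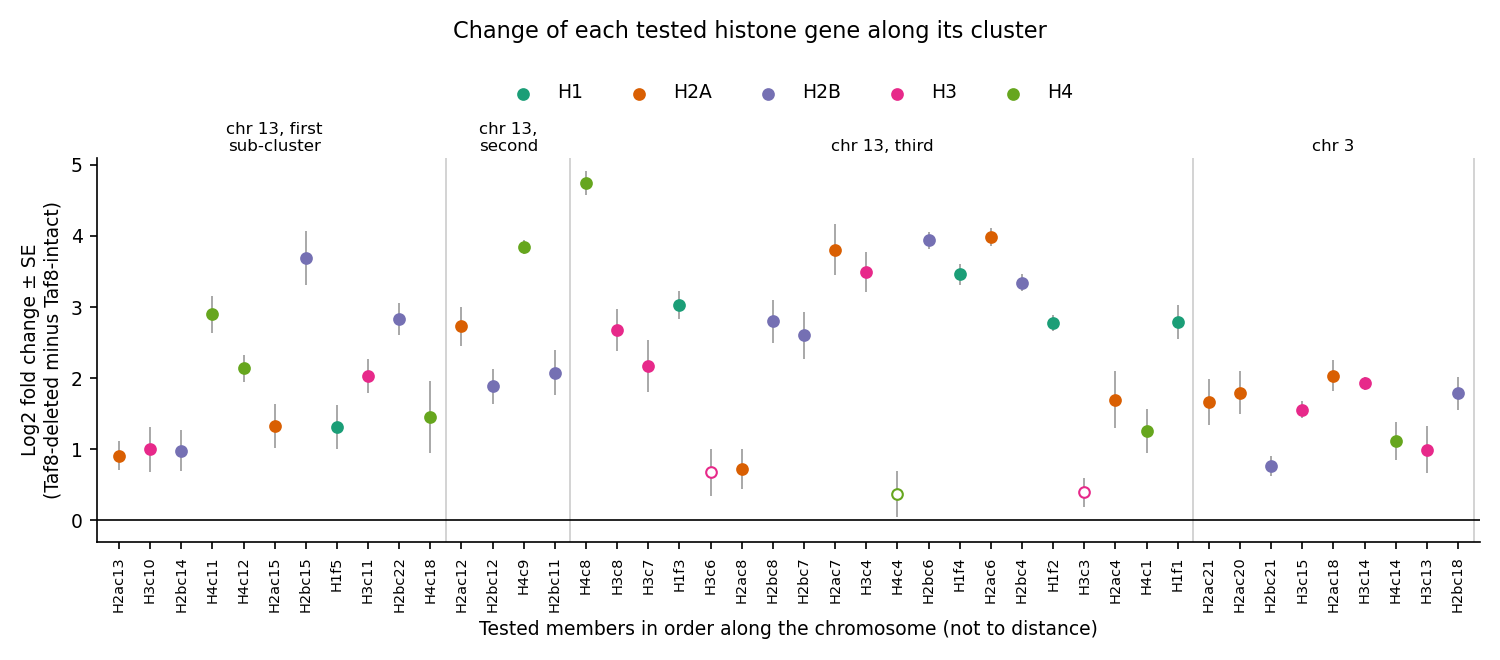
Log2 fold change ± SE (Taf8-deleted minus Taf8-intact) of the 44 tested members in order along chromosomes 13 and 3, coloured by class, with open points for the 3 members without a call. No point lies below 0, all chromosome 3 members lie at or below 2.03, and the highest values, up to 4.74 in H4c8, are in the chromosome 13 groups to the right of the first.

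**Figure D4:**
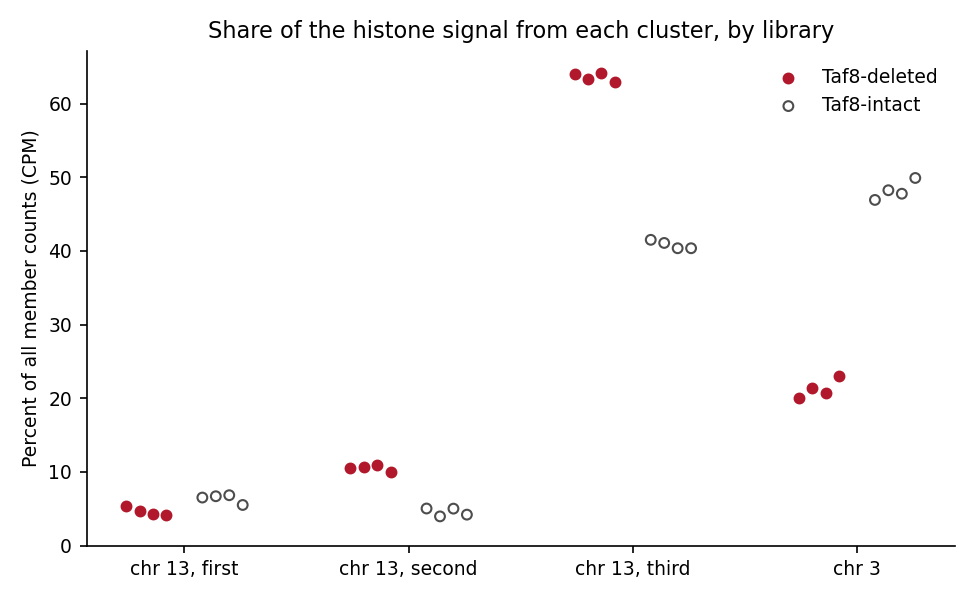
Percent of all member CPM that came from each chromosomal group, with 4 Taf8-deleted libraries (filled) left of 4 Taf8-intact libraries (open). The third chromosome 13 group holds about 63.6% in deleted and 40.8% in intact cortex, and the chromosome 3 group 21.3% in deleted and 48.2% in intact cortex.

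Neighbouring H2A and H2B genes are often transcribed away from each other from a shared promoter region. In these clusters 11 such pairs lay within 500 bases of each other, all divergent, and in 6 pairs both genes were tested. Both partners were called higher in all 6. Their changes were not equal: the partner H2bc8 of H2ac8 had a log2 fold change of 2.80 ± 0.30 against 0.72 ± 0.28 for H2ac8, and H2ac20 had 1.80 ± 0.30 against 0.76 ± 0.14 for its partner H2bc21. H2ac6 and H2bc4  stood at 3.99 and 3.34. Genes inside the clusters that encode no histone gave no call. Hfe, a regulator of iron uptake, was the 1 of 6 such genes that could be tested, with 1.04 ± 0.408 CPM in deleted and 0.664 ± 0.226 CPM in intact cortex (log2 fold change 0.65 ± 0.30, adjusted p = 0.077, edgeR) and overlapping libraries. Trim38 had at most 0.219 CPM in any library, and the phosphate transporter genes Slc17a1 to Slc17a4 at most 0.0474 CPM.

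Annotated length was used as a rough guide to members with long, polyadenylated annotated forms. Annotated exonic lengths ran from 312 to 2977 bases with a median of 411, and 10 members exceeded 1000 bases. H1f2 shows what the long models are: its deposited length is 1561 bases, and its GENCODE transcript of 1560 bases runs 840 bases past the stem-loop. Length does not separate the forms cleanly, since H2bc4, among the short members, has a transcript with 742 bases past the stop codon, and H2bc21 and H2bc23, among the long ones, have no stem-loop match. All 9 tested long members were called higher, at a median log2 fold change of 2.78, and 32 of 35 tested short members were, at a median of 1.89. Of these, 1 long and 27 short members were not above the filter's level in every intact library. Among the rest, 8 of 8 long and 7 of 8 short members were called higher, at medians of 2.91 and 1.91. The long members summed to 148 ± 5.30 CPM in deleted and 34.6 ± 6.40 CPM in intact cortex, a ratio of 4.28, and the short ones to 91.3 ± 5.66 CPM in deleted and 14.1 ± 1.42 CPM in intact cortex, a ratio of 6.46. Medians and sums thus ran in opposite directions. With only genes above 1 CPM in at least 4 libraries tested, the medians were close, at 2.93 for long and 2.84 for short members. H2bc21 decided the sum, since without it the long members had a ratio of 6.85. Without H2bc4 and H4c9 the short members had a ratio of 3.92. Long members held 61.9% ± 0.916 of the members' CPM in deleted and 70.8% ± 2.75 in intact cortex, without overlap. The annotated transcripts gave another division. Among the 43 members with a stem-loop match, 23 had a transcript that runs more than 50 bases past it, and 16 of 19 tested ones were called higher, at a sum of 151 ± 5.92 CPM in deleted and 21.9 ± 2.77 CPM in intact cortex, a ratio of 6.88. The other 20 had 11 of 11 tested genes called higher, at 14.5 ± 1.45 CPM in deleted and 2.63 ± 0.372 CPM in intact cortex, a ratio of 5.53. Only 10 of the 19 and 1 of the 11 were above the filter's level in every intact library, and 9 and 1 of these were called higher. The counts are per gene, so reads before the stem-loop and reads past it within one gene were not separated.

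**Figure D5:**
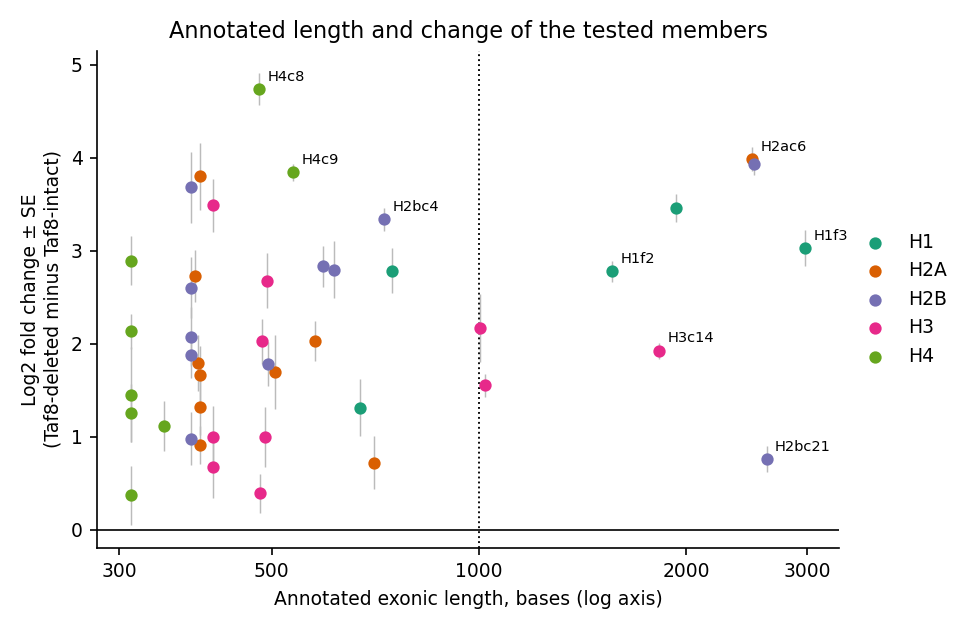
Annotated exonic length (log axis, bases) against log2 fold change ± SE (Taf8-deleted minus Taf8-intact) of the 44 tested members, coloured by class, with a dotted line at 1000 bases. Short members run from 0.37 in H4c4 to 4.74 in H4c8, and long members from 0.76 in H2bc21 to 3.99 in H2ac6.

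Because these genes are near copies of each other, their reads can be hard to assign. In GENCODE transcripts, 57 of 63 members shared at least 1 window of 100 bases, the read length, with another gene, and the median member shared 38.5% of its windows. The other gene could be a near copy or a gene model that overlaps the member at its own locus, on either strand. H3c14 and H2ac18 shared 100% of their windows with other genes, and both overlap exons of the gene model Gm20634. H3c15 shared 61.6%. The split of reads between these 3 members and other genes, and with it their separate values, is uncertain. How the authors counted multi-mapping reads is not given in the sources used here. Among the 11 members with under 10% of windows shared, which include H1f2, H1f3, H2ac6 and H2bc21, 8 of 9 tested genes were called higher and the sum was 121 ± 5.24 CPM in deleted against 30.4 ± 6.24 CPM in intact cortex. Among the 27 members with over 50% shared, 16 of 16 tested genes were called higher, at 30.6 ± 1.80 CPM in deleted and 8.82 ± 0.545 CPM in intact cortex. Above the filter's level in every intact library were 4 of the 9 and 6 of the 16, all called higher. The ratio of summed levels was 3.98 among members with little shared sequence and 3.47 among members with much of it. Near copies and overlapping gene models were not separated in this division.

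Genes that act in histone transcription and 3′ end formation were called in both directions. Of 17 tested, 8 were called higher and 5 lower, beside shares of 30.6% and 32.9% among all genes tested, with a median log2 fold change of 0.03 and a range from -0.57 in Zfp473 to 1.44 in Rnu7. Npat had 51.2 ± 1.58 CPM in deleted and 51.0 ± 1.97 CPM in intact cortex (0.00 ± 0.04, adjusted p = 0.926, edgeR). Slbp had 63.6 ± 1.79 CPM in deleted and 58.9 ± 3.37 CPM in intact cortex, a log2 fold change of 0.11 ± 0.04. The cap-binding Ncbp1 and the cleavage stimulation factor Cstf2 were called higher at 0.25 ± 0.03 and 0.26 ± 0.03, and Lsm11, a protein of the U7 particle, was called lower at -0.31 ± 0.05. Rnu7, the U7 RNA itself, was called higher at 1.44 ± 0.19, from a low level of 1.61 ± 0.266 CPM in deleted and 0.593 ± 0.0877 CPM in intact cortex. U7 RNA carries no poly(A) tail, so its counts in such libraries need care.

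Of 22 tested genes of DNA replication, 1 was called higher and 12 lower, beside 30.6% and 32.9% of all genes tested, with a median log2 fold change of -0.21. Gins1, a replication helicase subunit, was called lower at -0.92 ± 0.07, and E2f1, a regulator of S phase entry, at -0.64 ± 0.06. Mki67, which marks cycling cells, had 538 ± 54.0 CPM in deleted and 565 ± 51.0 CPM in intact cortex and no call (-0.07 ± 0.08, adjusted p = 0.471, edgeR). Of 14 tested histone chaperone genes, 3 were called higher and 8 lower, beside the same shares of all genes, with Chaf1b, a subunit of the chromatin assembly factor, at -0.51 ± 0.06 and Cabin1, of the HIRA complex, at 0.41 ± 0.04.

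Histone genes outside the rule, most of them replication-independent variants, gave 8 higher and 5 lower calls in 14 tested, beside 30.6% and 32.9% of all genes. Their median log2 fold change was 0.31, with a range from -0.46 to 3.16. The linker histone H1f0, known from cells that have stopped dividing, was called lower, at 392 ± 16.4 CPM in deleted and 540 ± 49.0 CPM in intact cortex (-0.46 ± 0.06). Macroh2a2 was called lower at -0.38 ± 0.03. H2aw and H2bu2, of a further small histone cluster, were called higher at 1.51 ± 0.06 and 0.59 ± 0.05, with 276 ± 20.9 CPM in deleted and 97.1 ± 7.11 CPM in intact cortex for H2aw. H2aw alone was thus above the sum of all 63 members, at 239 CPM in deleted and 48.7 CPM in intact cortex. It is not part of the H2A class described above.

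The groups also differed in markers of cell types, and a level in bulk tissue does not tell fewer cells of a type from less RNA per cell. Of 9 progenitor markers 5 were called higher and 2 lower, beside 30.6% and 32.9% of all genes tested. Their summed levels were 3617 to 3844 CPM in deleted and 2697 to 3114 CPM in intact libraries. Of 8 neuron markers none was called higher and 7 were called lower, beside the same shares of all genes. Their summed levels were 5033 to 5460 CPM in deleted and 6937 to 7590 CPM in intact libraries. Neither list overlapped between the groups. The progenitor sum was thus higher in deleted cortex, like the histone sum, and the neuron sum was lower. The part of either list in the histone sum was not tested.

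Calls on markers of other cell types also stand beside shares of 30.6% higher and 32.9% lower among all genes tested. All 4 endothelial markers were called higher, at sums of 129 to 163 CPM in deleted and 109 to 118 CPM in intact libraries. So were 2 of 4 blood markers, at 134 to 161 CPM in deleted and 91.5 to 132 CPM in intact libraries. Microglial markers gave 1 higher and 1 lower call in 4, at 29.8 to 35.4 CPM in deleted and 30.2 to 33.8 CPM in intact libraries. Of 4 meningeal markers 3 were called higher, and their sums were 53.3, 102, 132 and 14.9 CPM in the deleted libraries 1 to 4, against 21.7, 18.6, 10.2 and 32.2 CPM in the intact libraries. No marker of these lists was at 0 in a whole group. Deleted library 4 had a meningeal sum inside the intact range and a histone sum of 226 CPM, above the 59.7 CPM of the highest intact library. The part of the meningeal, endothelial and blood markers in the histone result was not tested.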

How the data were processed

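Embryonic cortex of 4 Taf8-deleted and 4 Taf8-intact mouse embryos was profiled by unstranded, paired-end sequencing of polyadenylated RNA with reads of 100 bases, per the labels. The deposited files hold raw whole-number counts for each gene, and the 8 per-embryo lists were identical to the columns of the deposited matrix. The matrix also holds an exonic length in bases for each gene, as the authors deposited it. The submitters' processing notes name bcl2fastq 1.8.4, Subread 1.5.0, featureCounts and build mm10, without their roles. The annotation used for counting and the treatment of multi-mapping reads are not stated in those sources. Identifiers were matched to an NCBI RefSeq table of GRCm38.p6, with a symbol for 25275 of 27179. The 1904 others held 1.128% to 1.639% of the counts of a Taf8-deleted library and 0.490% to 0.530% of a Taf8-intact one, without overlap. They stayed in the totals and the test.

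Genes were filtered with filterByExpr, which left 16074, scaled with TMM and compared with edgeR 4.0.16 in R 4.3.3 by the robust quasi-likelihood test with genotype as the only term. Benjamini-Hochberg adjustment ran over every gene tested, and calls were made under 0.05. A positive log2 fold change means higher in Taf8-deleted cortex, and its SE was derived from the F statistic. CPM values use TMM-scaled library sizes, and sums over members have no test. Sums without single members were chosen after seeing the data. The p-values measure the spread between embryos. No pair of libraries of a group agreed within sampling noise, with a chi-square per gene of 4.22 to 14.6.

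The members, the related gene lists, the marker lists and the comparisons were chosen with earlier results of these data known. Any member could be named. Values per library were given for Taf8, for the 3 tested members of each class with the highest mean CPM, for the members with the largest and the smallest log2 fold change and for every tested member without a call. H2ac8 is given per library outside this rule, chosen after its values were seen. Of a related list, the genes named are among up to 4 with the smallest p and up to 3 that went the other way, and Npat, Slbp, Mki67 and Emx1 were named for their roles. Some genes taken by this rule are not reported here. Stem-loops, spliced forms and shared windows came from GENCODE M21 transcripts and promoters from RefSeq windows. Protein sequences of the members were not used here.

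Alternatives were median-ratio, upper-quartile and unscaled library sizes, DESeq2 1.42.0, voom in limma 3.58.1, no filter on low counts, a limit of CPM above 1 in at least 4 libraries, the replicate number as a block, each library left out with the tested genes kept, and a length limit of 800 bases.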

Additional observations from a re-analysis of the deposited data

Results flagged for a closer look

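In each of the 108 groups of 4 libraries with counts checked, the highest or lowest library was compared with the spread of the others, and 7 stood apart. Chance gives about 1 in 20 such groups. H3c8 had 1.99 CPM in Taf8-deleted library 1, where the other deleted libraries had 1.18 to 1.25 CPM, and H3c7 had 0.591 CPM in the same library, where the others had 0.299 to 0.318 CPM. H3c4 was low in deleted library 3, at 1.15 CPM where the others had 1.75 to 1.84 CPM, and H4c1 was high there, at 0.294 CPM against 0.241 to 0.250 CPM in the others. H2bc7 had 0.773 CPM in deleted library 4, against 0.723 to 0.726 CPM in the other deleted libraries. Among Taf8-intact libraries, H4c1 had 0.0707 CPM in library 2, where the others had 0.116 to 0.122 CPM, and H4c14 had 0.232 CPM in library 1, where the others had 0.165 to 0.170 CPM. In none of these genes did the library that stood apart reach the range of the other genotype.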

How the results depend on the processing

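The number of members called higher was 41 with every scaling and with limma voom, 38 with DESeq2, 49 of 61 tested without a filter and 18 of 18 tested at a CPM above 1 in 4 libraries, and it ran from 39 to 41 when a library was left out. No member was called lower under any of these alternatives. The replicate numbers did not pair the libraries, with correlations of same-numbered libraries between -0.46 and 0.01. With the replicate number as a block 40 members were called higher, all 40 among the 41, and H2ac8 was lost at an adjusted p of 0.0633. Calls were lost under at least 1 alternative for 4 members: H2ac8, H3c10 (DESeq2, adjusted p = 0.0731), H3c13 (DESeq2, or without deleted library 1, intact library 1 or intact library 2, adjusted p = 0.0548 to 0.0836) and H4c18 (without deleted library 3 or intact library 4, adjusted p = 0.0570 and 0.0630). H3c6 was called higher, at 0.87, without deleted library 3.

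Medians of log2 fold changes moved mostly where the filter changed which genes were tested. At a CPM above 1 in 4 libraries they were 2.84 for all members, 3.06 for H1, 3.04 for H2A, 2.84 for H2B, 2.33 for H3, 3.87 for H4, 3.37 for chromosome 13, 2.93 for long and 2.84 for short members. Without a filter they were 1.87 for all members, 1.98 for H2B, 2.08 for chromosome 13 and 2.47 for long members. Voom gave 2.05 for H4. With a library left out the median ran from 1.91 to 2.16 for all members, 1.52 to 2.11 for H2A, 2.34 to 2.70 for H2B, 1.65 to 2.01 for H4, 2.34 to 2.61 for chromosome 13 and 1.83 to 2.14 for short members. The log2 ratio of summed CPM of all members ran from 2.25 to 2.41 and moved by less than the spread between libraries in every alternative. Other scalings shifted the median of all genes by up to 0.06. A length limit of 800 bases added H1f6 to the long members and changed no call. Members whose counts lie near 0.0670 to 0.0758 CPM, the level of 3 counts, were limited by depth.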
